A study of Homo sapiens with 60 samples.

Results

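MDA-MB-231 cells, an established line of triple-negative breast cancer, were kept in the vehicle DMSO without any compound, and cells harvested 24 h after its addition were set against cells harvested at 6 h. Each time had 6 libraries, so the comparison used 12 of the 60 libraries of the series, chosen by the labels alone. All cells had been plated the night before. The other libraries were DMSO cells at 1 h and 3 h (6 each) and cells given BAY2506856 at 100, 300 or 1000 nM for 1, 3, 6 or 24 h (3 each). The 4 times come from the sample labels, whereas the design text mentions harvest only at 24 h. The labels do not say whether replicates were separate cultures. The p-values therefore cover only the spread among libraries within groups, pooled over all 60 of the series, which may be technical. Poly(A) RNA was sequenced, and levels are given in FPKM (fragments per kilobase of transcript, scaled to library depth), which can be compared between genes.

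A culture that is left for a day without fresh medium uses up nutrients and serum lipids, and its cells move through the cell cycle and fill the free surface. Cells short of sterol raise the genes of cholesterol synthesis through the transcription factors SREBP1 and SREBP2. Type I interferon signalling raises a set of antiviral genes such as the IFIT family, and stiff or sparse contacts keep genes of the cell matrix and the YAP1/TAZ and TGF-beta programs high. These are textbook points and not results of these data.

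At 24 h the vehicle cells differed from those at 6 h in many genes by a small amount. Of 15866 genes tested with limma, 1482 (9.34%) passed a Benjamini-Hochberg adjusted p of 0.05 and are called changed here, 787 (4.96%) higher at 24 h and 695 (4.38%) lower. With voom on the recovered reads the split was 959 higher and 448 lower, and without DMSO 6 h replicate 1 the deposited values gave 980 calls. Fitted on the 12 libraries of the comparison alone, without the spread of the other libraries, 370 genes were called, 224 higher and 146 lower. The median change of a called gene was 1.29-fold in either direction, and 41 called genes (0.258%) changed at least 2-fold, 13 of them higher and 28 lower. In 619 genes (3.9%) the 6 libraries of one time did not overlap the 6 of the other, with 366 (2.31%) above and 253 (1.59%) below at 24 h. The mean at 24 h lay above those at 1, 3 and 6 h in 769 of the 787 called higher (97.7%). It lay below all 3 in 677 of the 695 called lower (97.4%). The calls rest on the same 24 h values and already set 24 h apart from 6 h, so high shares follow in part from the choice of genes. The share over all genes is not given.

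The libraries differed in ways that the labels do not describe. Recovered depth was 0.475 to 12.95 M reads at 24 h and 4.80 to 24.0 M at 6 h, and the shallowest was DMSO 24 h replicate 2. This library and DMSO 6 h replicate 5 were of a second library type, told apart by the level of 11 pseudogenes, while the other 10 were of the first type. Libraries also differed in how level followed the GC content of a transcript, with slopes of -0.498 to 0.087 at 24 h and -0.288 to 0.383 at 6 h (log2 per 10 points of GC). The median log2 change between the times was 0.10 in the group of genes with the lowest GC content and -0.245 in that with the highest, of 5 groups of equal size. With terms for the library types 4162 genes (26.2%) were called, 1875 (11.8%) higher and 2287 (14.4%) lower. With the GC trend of each library taken out 2471 of 13279 genes (18.6%) were called, 1255 (9.45%) higher and 1216 (9.16%) lower. With both, an alternative chosen after seeing the data, the medians of the GC groups were -0.012 and 0.002, and 3695 of 13279 genes (27.8%) were called, 1816 (13.7%) higher and 1879 (14.2%) lower. Of the 1395 called genes with a GC value, 1333 were called in the same direction in that fit and none changed sign. Its values are given below as GC-corrected.

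**Figure D1:**
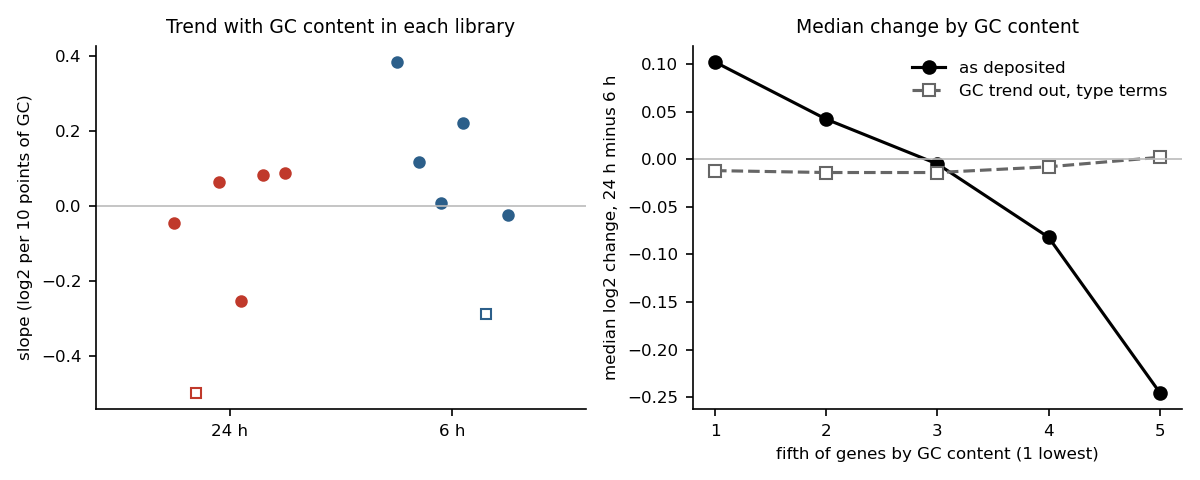
Left, slope of each library's log2 level on the GC content of the transcript (log2 per 10 points of GC), for the 6 DMSO libraries at 24 h and the 6 at 6 h, with open squares for the second library type. Right, median log2 change, 24 h minus 6 h, in 5 equal groups of genes by GC content (1 lowest), where the deposited values run between 0.10 and -0.245 and the GC-corrected values stay between -0.014 and 0.002.

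The labelled cell type was checked first. VIM, CD44, AXL, MET, CAV1 and KRT18, which MDA-MB-231 cells carry at high levels, were present in all 12 libraries, the lowest value of AXL being 165 FPKM. ESR1 was at 0 in all 12, PGR and FOXA1 stayed under 0.02 FPKM and CDH1 under 0.52 FPKM, while GATA3 (3.37 to 4.04 FPKM at 24 h and 3.13 to 5.58 at 6 h) and EPCAM (6.02 to 9.03 FPKM at 24 h and 4.43 to 6.88 at 6 h) were not at 0. The full list of 12 genes taken as low in this line summed to 112 to 168 FPKM at 24 h and 116 to 210 at 6 h. Members not named here held most of that sum, so the list as a whole was not low. Among markers of other cell types, CD3E, a T cell gene, and DCN, a fibroblast gene, were at 0 in all 12 libraries. The summed level of the 7 leukocyte markers in the table was 1.17 to 2.54 FPKM at 24 h and 1.77 to 3.17 FPKM at 6 h, and that of 8 fibroblast markers was 3.54 to 7.2 FPKM at 24 h and 3.37 to 5.54 FPKM at 6 h. The 4 endothelial markers summed to 0.614 to 1.2 FPKM at 24 h and 0.73 to 0.912 FPKM at 6 h. None of the 7 members of these 3 lists that were high enough to test was called (2 leukocyte, 1 endothelial and 4 fibroblast genes).

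The largest changes are described for genes with a name other than a clone's, a mean of at least 2 FPKM at the higher time, no overlap between the times, and a call also with terms for the library types (472 genes met this naming rule). The 12 largest rises among them had log2 changes of 0.88 to 1.50. LGALS12, a galectin known mostly from fat cells, had 6.37, 14.7 and 16.1 FPKM at 24 h (lowest, median and highest of 6), against 2.6, 4.72 and 5.03 FPKM at 6 h. All 6 libraries at 24 h lay above all at 6 h (log2 change 1.50 ± 0.18 (SE), adjusted p = 7.37e-08). The lowest at 24 h was the shallow replicate 2, and without it the log2 change was 1.69. DDIT4, an inhibitor of the growth kinase mTORC1 that stress and low energy induce, had 34.1, 48.2 and 56.5 FPKM at 24 h, against 15.8, 22 and 27 FPKM at 6 h. The groups did not overlap (log2 change 1.10 ± 0.17 (SE), adjusted p = 8.69e-06). NNMT, which methylates nicotinamide, had 28.6, 30.6 and 32.1 FPKM at 24 h, against 14.1, 15.2 and 15.9 FPKM at 6 h, with little spread in either group (log2 change 0.98 ± 0.07 (SE), adjusted p = 1.01e-14). SLC2A12, a glucose transporter, had 4.13, 4.8 and 5.55 FPKM at 24 h, against 1.69, 2.13 and 2.6 FPKM at 6 h (log2 change 1.01 ± 0.09 (SE), adjusted p = 4.89e-11), and its groups did not overlap either.

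The other 8 of the 12 largest rises by the naming rule were TRAC, FLJ22447, IFIT1, SNAI1, INSIG1, SLC40A1, C15orf48 and VCAM1, with log2 changes of 0.88 to 1.23. SLC40A1 is ferroportin, the exporter of iron, and had 5.38, 6.03 and 7.63 FPKM at 24 h, against 2.81, 3.14 and 3.42 FPKM at 6 h (log2 change 0.90 ± 0.09 (SE), adjusted p = 4.93e-10). VCAM1, an adhesion receptor for leukocytes, had 2.77, 3.23 and 3.52 FPKM at 24 h, against 1.2, 1.52 and 2.06 FPKM at 6 h (log2 change 0.88 ± 0.10 (SE), adjusted p = 2.74e-08). SNAI1, a repressor of epithelial genes, stayed low, with 1.74, 2.61 and 3.67 FPKM at 24 h, against 0.363, 1.14 and 1.73 FPKM at 6 h (log2 change 1.00 ± 0.23 (SE), adjusted p = 0.00205). TRAC encodes the constant part of the T cell receptor alpha chain and had 2.01, 2.12 and 5.45 FPKM at 24 h, against 0.537, 0.747 and 1.23 FPKM at 6 h (log2 change 1.23 ± 0.22 (SE), adjusted p = 0.000105), in libraries where CD3E was at 0. All of these groups were separate, as the naming rule requires. All 12 rises were called in the GC-corrected fit, which shares the library type terms of that rule.

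Several secreted proteins were among the largest falls. TFF1 and TFF2, small trefoil peptides of mucous surfaces, had the largest falls on the log2 scale by the naming rule. TFF1 had 0, 3.44 and 4.22 FPKM at 24 h, against 8.88, 11.8 and 18.6 FPKM at 6 h (log2 change -2.21 ± 0.28 (SE), adjusted p = 1.63e-07), and TFF2 had 0, 2.69 and 3.34 FPKM at 24 h, against 6.38, 8.24 and 10.2 FPKM at 6 h (log2 change -1.82 ± 0.28 (SE), adjusted p = 8.69e-06). The value of 0 in both came from the shallow replicate 2, where 3 reads would be 11.2 FPKM of TFF1 and 7.47 FPKM of TFF2. Without that library the log2 changes were -1.73 and -1.37, both still called.

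LCN2, an iron-binding acute phase protein, and C3, the central complement protein, fell as well. LCN2 had 1.29, 4.59 and 5.41 FPKM at 24 h, against 6.12, 11 and 12.9 FPKM at 6 h (log2 change -1.29 ± 0.18 (SE), adjusted p = 1.34e-06). C3 had 3.72, 4.79 and 5.52 FPKM at 24 h, against 8.00, 9.4 and 10.5 FPKM at 6 h (log2 change -0.93 ± 0.07 (SE), adjusted p = 2.22e-13), with no overlap between the times, which the naming rule requires. C4A and C4B, complement genes that are near-identical copies and share reads, had log2 changes of -0.95 ± 0.15 and -0.90 ± 0.14 that cannot be told apart by gene. RGS4, which shortens signals of G protein-coupled receptors, had 4.8, 5.34 and 6.83 FPKM at 24 h, against 8.5, 10.8 and 13.2 FPKM at 6 h (log2 change -0.93 ± 0.09 (SE), adjusted p = 1.99e-10). PORCN, the enzyme that puts the lipid on WNT proteins, had 4.8, 8.81 and 9.96 FPKM at 24 h, against 11, 18.9 and 25 FPKM at 6 h (log2 change -1.12 ± 0.20 (SE), adjusted p = 6.91e-05). SPHK1, which makes the lipid signal sphingosine-1-phosphate, had a log2 change of -1.24 ± 0.21 (adjusted p = 5.19e-05), and was at 0 in the shallow library, where 3 reads would be 1.4 FPKM. TNFSF9, a ligand of the TNF family, had -1.03 ± 0.29, but without DMSO 24 h replicate 2 the value was -0.54 and no longer called (adjusted p = 0.0867). The last of the 12, the pseudogene SDCCAG3P1, had -0.88 ± 0.23, and -0.51 without the same library.

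**Figure D2:**
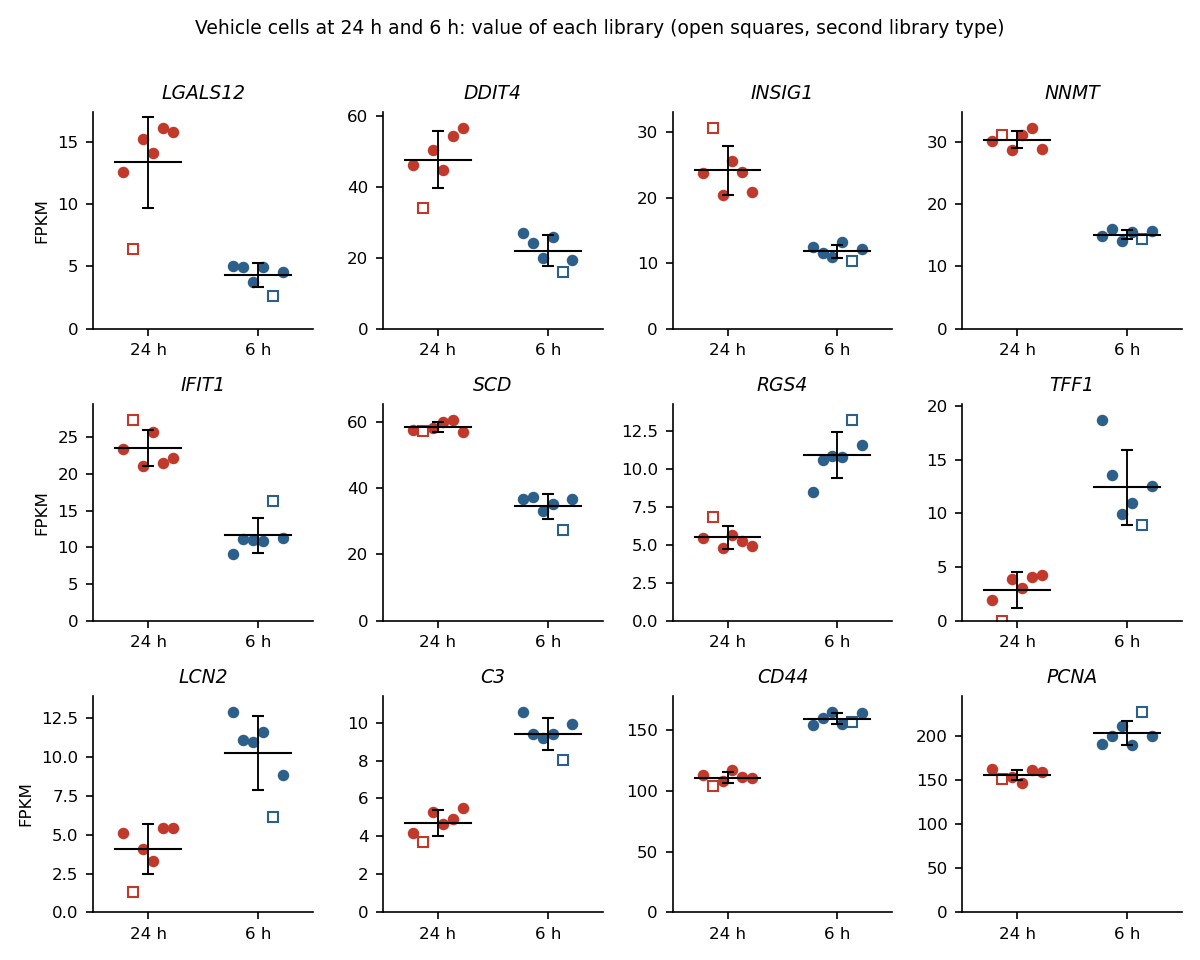
FPKM of 12 genes in each DMSO library at 24 h (red) and 6 h (blue), 6 libraries each, with mean and SD as black bars and open squares for the second library type. The 6 values of RGS4 at 24 h lie between 4.8 and 6.83, below the 8.5 to 13.2 at 6 h, and those of NNMT at 24 h lie between 28.6 and 32.1, above the 14.1 to 15.9 at 6 h.

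The levels at 1 and 3 h were set beside those at 6 and 24 h. CD44 averaged 159 ± 9.00, 168 ± 7.61, 159 ± 4.54 and 111 ± 4.59 FPKM at 1, 3, 6 and 24 h (SD, n = 6 each), and NNMT averaged 13.9 ± 1.33, 14.4 ± 2.22, 15.1 ± 0.753 and 30.3 ± 1.38 FPKM. The step between 24 h and 6 h was tested against the step between 3 h and 1 h, and 607 genes (3.83%) differed, 338 (2.13%) with the higher and 269 (1.7%) with the lower value in the late step. Of the 1482 genes called between 24 h and 6 h, 490 were called in this test in the same direction. Of the 12 largest rises 10 were called in this test, and of the 12 largest falls 10. The test uses the 24 h and 6 h libraries of the comparison itself. The rises not called in the limma test were DDIT4 and SNAI1 (adjusted p = 0.653), and the falls TNFSF9 (adjusted p = 0.262) and SDCCAG3P1 (adjusted p = 0.112). DDIT4 averaged 8.27 ± 1.95, 24 ± 1.94, 22 ± 4.32 and 47.6 ± 8.05 FPKM, with steps that did not pass the test of their difference (-0.41 ± 0.24, adjusted p = 0.434). LGALS12 had 5.24 ± 1.39, 4.77 ± 1.25, 4.3 ± 0.952 and 13.4 ± 3.67 FPKM and the largest positive difference between the steps by the naming rule, 1.61 ± 0.26 (adjusted p = 5.57e-05). The DMSO libraries at 1 h and 3 h include 6 of another library type with high MT-ND6 (56.9 to 105 FPKM), and with terms for the library types 2094 genes differed in this test.

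**Figure D3:**
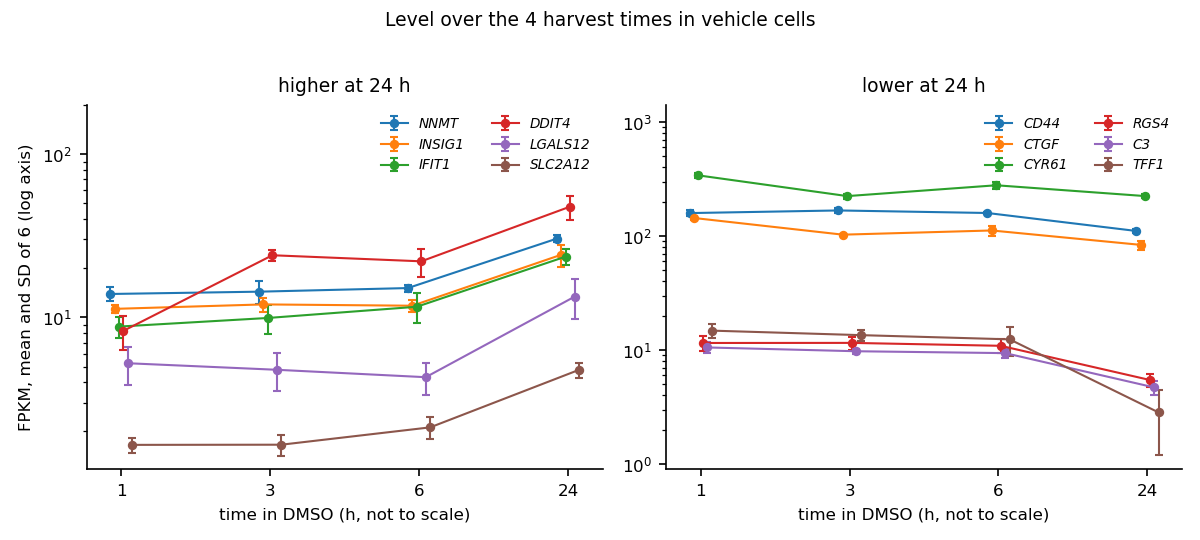
Mean and SD of FPKM (log axis) over 6 DMSO libraries at each of 1, 3, 6 and 24 h, for 6 genes higher and 6 lower at 24 h than at 6 h. CD44 stands at 159, 168, 159 and 111 FPKM, and CYR61 at 341, 224, 279 and 224 FPKM.

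Genes of cholesterol synthesis and uptake were higher where they were called in the deposited values. Of 24 tested members 11 were called higher and 0 lower, beside 4.96% and 4.38% of all genes. Of the 24, 18 had a positive and 6 a negative sign, with a median log2 change of 0.20 against -0.02 over all genes tested. In each of 12 fits that left out 1 library 6 of the 11 were called. So were 418 of all 787 genes called higher and 310 of all 695 called lower, which is the background for such counts in the lists below. INSIG1, the sterol sensor that holds SREBP back and is itself an SREBP target, had 20.4, 23.8 and 30.6 FPKM at 24 h, against 10.4, 11.8 and 13.2 FPKM at 6 h. It was higher in 6 of 6 libraries (log2 change 1.00 ± 0.07 (SE), adjusted p = 1.34e-15). HMGCS1, an enzyme at the head of the mevalonate pathway, had a log2 change of 0.48 ± 0.11 (adjusted p = 0.00237). MSMO1 and IDI1, enzymes further along, rose by 0.48 ± 0.09 and 0.49 ± 0.12. In the GC-corrected fit 14 members were called higher and 1 lower, beside 13.7% and 14.2% of all genes.

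Among 17 genes of fatty acid synthesis and desaturation 4 were called higher and 0 lower, beside 4.96% and 4.38% of all genes. SCD, which makes monounsaturated fatty acids, had 57.1, 57.9 and 60.6 FPKM at 24 h, against 27.6, 36 and 37.5 FPKM at 6 h (log2 change 0.76 ± 0.07 (SE), adjusted p = 1.27e-11), again without overlap. LPIN1 and ACSL3, which act in making glycerolipids and in activating fatty acids, rose by 0.44 ± 0.09 and 0.41 ± 0.10 (adjusted p = 0.000342 and 0.00547). ABCA1, which carries cholesterol out of cells, was the 1 called of 6 tested genes of cholesterol efflux, at 0.30 ± 0.08.

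Interferon-stimulated genes were mostly higher where they were called. Of 32 tested members 10 were called higher and 1 lower (median log2 change 0.16), beside 4.96% and 4.38% of all genes. In all 12 fits without 1 library 5 of the 10 were called, as were 418 of all 787 genes called higher. IFIT1, an RNA-binding antiviral protein, had 21.1, 22.8 and 27.3 FPKM at 24 h, against 9.07, 11.1 and 16.3 FPKM at 6 h (log2 change 1.00 ± 0.13 (SE), adjusted p = 1.49e-07). IFIT2 and IFIT3 rose by 0.78 ± 0.12 and 0.74 ± 0.09, and OASL, a relative of the RNA-sensing OAS enzymes, by 0.68 ± 0.09 (adjusted p = 1.03e-05, 1.21e-07 and 6.37e-07). None of these groups overlapped. HLA-E, a class I molecule that natural killer cells read, fell, with 128, 174 and 183 FPKM at 24 h, against 168, 205 and 245 FPKM at 6 h (log2 change -0.36 ± 0.09 (SE), adjusted p = 0.00821). HLA-B and HLA-C, which present peptides, had -0.40 ± 0.18 and -0.40 ± 0.19 and were not called. GC-corrected, 17 members were called higher and 4 lower, HLA-B (-0.23), HLA-C (-0.11) and HLA-E (-0.27) among the lower. Over all genes that fit called 13.7% higher and 14.2% lower.

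The promoters of the IFIT genes are shown because the interferon element that the factor ISGF3 is known to bind can be read in them. Promoters were those of RefSeq on GRCh38.p14, of which the 250 bases before the start were searched on both strands for GAAA, any 2 bases and GAAA again, and matches on either strand are in capitals. Such letters stood in 15 of 23 tested members with an entry, in 302 of 8747 tested genes with an entry (3.45%) and in 3.02% of all 35116 promoters. The stretches printed lie at chr10:89392492-89392544 on the plus strand and, for the 2 starts of IFIT3, at chr10:89327826-89327899 on the plus strand and chr10:89332420-89332502 on the plus strand.
IFIT1: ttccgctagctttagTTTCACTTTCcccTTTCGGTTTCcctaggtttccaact
IFIT3, upstream start: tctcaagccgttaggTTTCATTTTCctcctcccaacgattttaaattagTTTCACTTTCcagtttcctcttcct
IFIT3, downstream start: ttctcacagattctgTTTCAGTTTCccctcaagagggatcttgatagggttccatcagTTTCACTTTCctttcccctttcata
Each stretch holds 2 matches, and the first of IFIT1 begins 116 bases before the start.

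Other inflammatory genes were mixed. Of 18 tested NF-kB targets 3 were called higher and 0 lower, beside 4.96% and 4.38% of all genes. CCL2, which draws monocytes, rose but stayed near 1 FPKM, with 0.76, 0.863 and 1.04 FPKM at 24 h, against 0.192, 0.358 and 0.441 FPKM at 6 h (log2 change 0.71 ± 0.14 (SE), adjusted p = 0.000544). ICAM1, an adhesion receptor, rose by 0.43 ± 0.12 (adjusted p = 0.0193), a call lost without DMSO 6 h replicate 5 at 0.35. SAA1, an acute phase protein of the glucocorticoid list, fell, with 32.4, 39.9 and 46.5 FPKM at 24 h, against 56.6, 61 and 64 FPKM at 6 h (log2 change -0.62 ± 0.07 (SE), adjusted p = 3.65e-09). SGK1, a kinase that glucocorticoids induce, fell by 0.43 on the log2 scale, and 3 of 13 tested members of that list were called lower and 2 higher.

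Genes of DNA replication were lower where they were called in the deposited values. Of 40 tested members of the S phase list 17 were called lower and 0 higher (median log2 change -0.22), beside 4.38% and 4.96% of all genes. A negative sign was seen in 38. In all 12 fits without 1 library 8 of the 17 were called, as were 310 of all 695 genes called lower. In bulk RNA, fewer cells in S phase and less RNA per cell cannot be told apart. PCNA, the sliding clamp of the replication fork, had 147, 157 and 163 FPKM at 24 h, against 190.3, 200.3 and 227 FPKM at 6 h (log2 change -0.38 ± 0.06 (SE), adjusted p = 6.84e-06). CDC45, part of the replicative helicase, had 12.3, 14.2 and 14.8 FPKM at 24 h, against 19.3, 20.7 and 22.7 FPKM at 6 h (log2 change -0.57 ± 0.07 (SE), adjusted p = 1.63e-07), and both groups were separate. TYMS, which makes thymidylate, fell, with 115, 124 and 145 FPKM at 24 h, against 149.7, 155 and 172 FPKM at 6 h (log2 change -0.33 ± 0.05 (SE), adjusted p = 1.19e-05), and MCM7, a helicase subunit, had -0.36 ± 0.06. E2F1, the factor that drives these genes, had 24.8, 42.9 and 45.7 FPKM at 24 h, against 37, 55.3 and 87.7 FPKM at 6 h, overlapping between the times (log2 change -0.56 ± 0.17 (SE), adjusted p = 0.0268), and the call was lost without any 1 of 4 libraries (DMSO 24 h replicates 2 and 4, DMSO 6 h replicates 1 and 4), with values of -0.43 to -0.53. GC-corrected, E2F1 was called at -0.27 and MCM7 at -0.23, and 28 of the 40 were called lower and 1 higher, beside 14.2% and 13.7% of all genes.

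Promoter stretches of 3 of the genes that fell are shown because E2F factors are known to bind such letters in S phase genes. The letters searched were TTTCCCGC, TTTGGCGC, TTTCGCGC and TTTGCCGC on both strands, and no match shown overlaps another. They stood in 14 of 35 tested S phase genes with an entry, in 515 of 8747 tested genes (5.89%) and in 2.79% of all promoters. The stretches lie at chr20:5126659-5126696 on the minus strand, chr18:657599-657636 on the plus strand and chr19:48170436-48170473 on the minus strand.
PCNA: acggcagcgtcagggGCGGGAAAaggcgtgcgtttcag
TYMS: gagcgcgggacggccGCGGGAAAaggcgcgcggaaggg
LIG1: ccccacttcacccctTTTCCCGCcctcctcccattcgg
LIG1, a DNA ligase, had a log2 change of -0.50 ± 0.14 (adjusted p = 0.011) that was not called without DMSO 24 h replicate 2 (-0.42).

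Mitotic genes were called in both directions, where 4.96% of all genes were called higher and 4.38% lower. Of 42 tested members 5 were called higher and 1 lower (median log2 change 0.05). KIF20A, a kinesin of the final cut between daughter cells, had 58.6, 61.6 and 67.8 FPKM at 24 h, against 43.4, 46.4 and 48.4 FPKM at 6 h (log2 change 0.43 ± 0.05 (SE), adjusted p = 6.65e-09). CCNB1 and CCNB2, the cyclins of mitotic entry, rose by 0.32 ± 0.07 and 0.40 ± 0.08, and PTTG1, securin, by 0.37 ± 0.06 (adjusted p = 0.00156, 0.000696 and 1.01e-05). AURKB, an Aurora kinase, fell by 0.37 on the log2 scale, a call lost without DMSO 24 h replicate 2 (-0.29) or DMSO 6 h replicate 1 or 4 (-0.35 each). MKI67, the usual proliferation marker, had 32.1, 39.6 and 49 FPKM at 24 h, against 35.8, 39.7 and 50.3 FPKM at 6 h and a log2 change of -0.03 ± 0.11 (adjusted p = 0.918). The balance of this list depended on the correction, with 8 called higher and 10 lower GC-corrected, beside 13.7% and 14.2% of all genes. In the first library type alone 13 were called higher and 4 lower. There 4258 of all genes (26.8%) were called, 2190 (13.8%) higher and 2068 (13%) lower.

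Genes of ribosome biogenesis, which MYC is known to drive, were called lower in 9 of 30 tested members and higher in 0 (median log2 change -0.19). Over all genes 4.38% were called lower and 4.96% higher. In all 12 fits without 1 library 5 of the 9 were called, as were 310 of all 695 genes called lower. ODC1, which makes polyamines, had 46.6, 51.7 and 53.6 FPKM at 24 h, against 57.2, 64.9 and 67.5 FPKM at 6 h (log2 change -0.34 ± 0.06 (SE), adjusted p = 1.50e-05). NOP16 and RRP12, factors of ribosome assembly, fell by 0.39 and 0.49 on the log2 scale (adjusted p = 0.000514 and 0.00309). MYC itself had 25.6, 34.5 and 37 FPKM at 24 h, against 34.2, 36.4 and 47 FPKM at 6 h and was not called (log2 change -0.24 ± 0.08 (SE), adjusted p = 0.0614). None of the 38 messages of cytosolic ribosomal proteins was called in either direction by limma, although 3747 of all genes had an unadjusted p under 0.05. In the GC-corrected fit 2 of these 38 were called higher, beside 13.7% of all genes. CCND1, the cyclin D1 that growth signals induce, had 108, 115 and 117 FPKM at 24 h, against 129, 139 and 158 FPKM at 6 h (log2 change -0.31 ± 0.04 (SE), adjusted p = 1.04e-06), below at 24 h in all libraries.

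Genes of the extracellular matrix and of its receptors were mostly lower where they were called. Of 36 tested members 15 were called lower and 1 higher, beside 4.38% and 4.96% of all genes, with a median log2 change of -0.28. In all 12 fits without 1 library 8 of the 15 were called, as were 310 of all 695 genes called lower. COL4A2 and COL4A1, the collagens of basement membranes, had -0.71 ± 0.16 and -0.48 ± 0.08 (adjusted p = 0.00242 and 4.43e-05), and MMP1, a collagenase, -0.78 ± 0.11 (adjusted p = 8.01e-07). COL4A2 was at -0.44 GC-corrected and still called. COL6A1 and COL6A2, chains of collagen VI, had -0.81 ± 0.25 and -0.86 ± 0.25 but -0.49 and -0.42 GC-corrected, and their calls in the deposited values were lost, at -0.62 to -0.79, without DMSO 24 h replicate 2 or 4 or DMSO 6 h replicate 1 or 4, and that of COL6A1 also without DMSO 6 h replicate 2. P4HA1, which hydroxylates collagen and is also induced by hypoxia, was the member that rose (log2 change 0.54 ± 0.09 (SE), adjusted p = 4.84e-05). CD44, the hyaluronan receptor that marks this line, had 104, 111 and 118 FPKM at 24 h, against 155, 159 and 165 FPKM at 6 h (log2 change -0.52 ± 0.03 (SE), adjusted p = 8.50e-16). GC-corrected, 24 of the 36 were called lower and 3 higher, beside 14.2% and 13.7% of all genes.

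Targets of TGF-beta and of YAP1/TAZ also held more falls than rises. Of 16 tested TGF-beta targets 8 were called lower and 0 higher, beside 4.38% and 4.96% of all genes. In all 12 fits without 1 library 5 of the 8 were called, as were 310 of all 695 genes called lower. GC-corrected, 8 of the 16 were called lower and 3 higher, beside 14.2% and 13.7% of all genes. PMEPA1, a brake on TGF-beta signalling, had 14.2, 15.4 and 17.1 FPKM at 24 h, against 20.4, 24 and 31.7 FPKM at 6 h (log2 change -0.65 ± 0.08 (SE), adjusted p = 9.48e-08). THBS1, thrombospondin, had -0.41 ± 0.05 (adjusted p = 1.74e-07). TGFB1, the ligand, had -0.59 ± 0.20 at the edge of the threshold (adjusted p = 0.0496), and the call was lost without DMSO 24 h replicate 1, 2 or 4 or DMSO 6 h replicate 2 or 4 (-0.49 to -0.61) or DMSO 6 h replicate 1 (-0.37). GC-corrected, TGFB1 was called at -0.27. Of 22 tested YAP1/TAZ targets 7 were called lower and 1 higher, and 9 and 3 GC-corrected. CYR61 and CTGF are secreted proteins and the most used readouts of YAP1/TAZ. CYR61 had 214, 222 and 237 FPKM at 24 h, against 261, 269 and 315 FPKM at 6 h. CTGF had 70.6, 85.6 and 92.1 FPKM at 24 h, against 103, 108 and 134 FPKM at 6 h. Neither pair of groups overlapped (-0.31 ± 0.06, adjusted p = 0.000214, and -0.42 ± 0.05, adjusted p = 2.38e-07). Mean levels at 1 and 3 h were 341 and 224 FPKM for CYR61 and 144 and 103 FPKM for CTGF. ANKRD1, another target, had 109, 114 and 156 FPKM at 24 h, against 89, 106 and 141 FPKM at 6 h and was not called (log2 change 0.14 ± 0.09 (SE), adjusted p = 0.36), and LATS2, a kinase that restrains YAP1, rose by 0.33 ± 0.08.

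**Figure D4:**
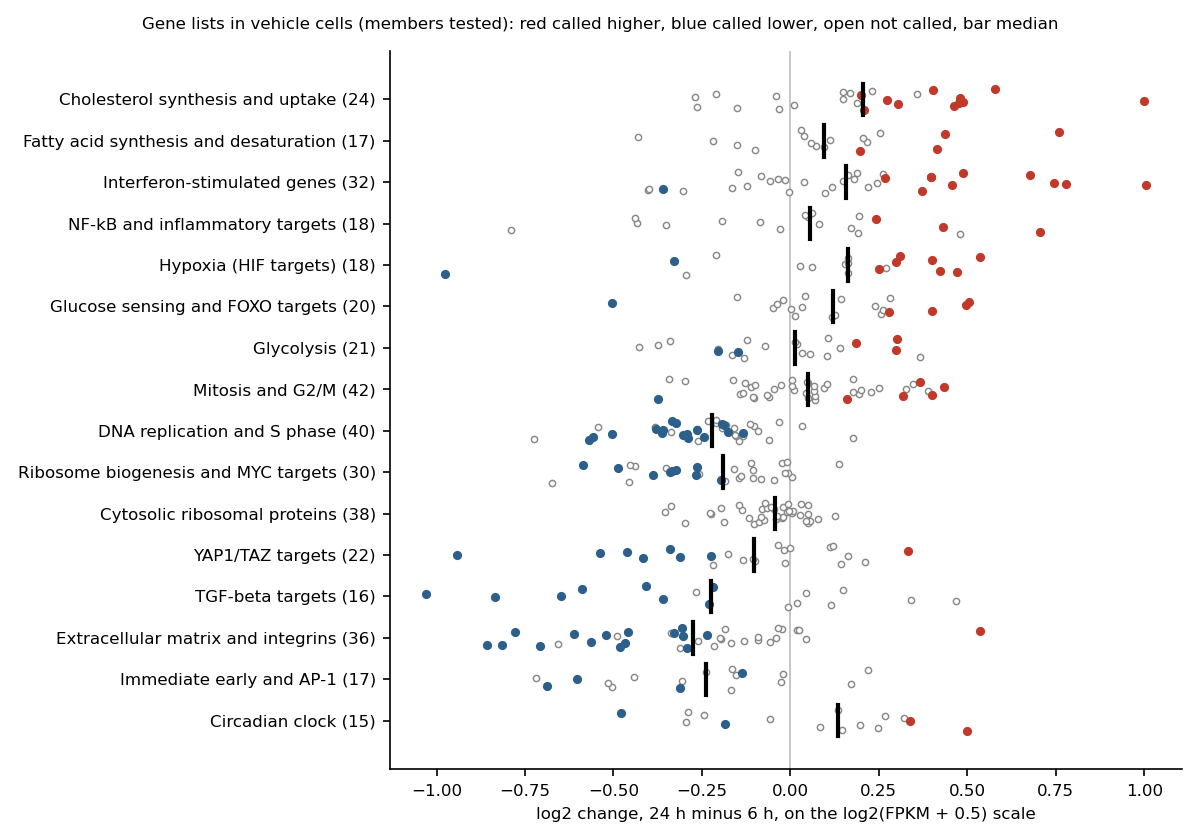
Log2 change, 24 h minus 6 h in DMSO cells, of every tested member of 16 gene lists, with the number tested in brackets, red for members called higher at 24 h, blue for lower, open for not called, and a black bar at the median. The medians run between -0.28 for extracellular matrix genes and 0.20 for cholesterol synthesis.

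Hypoxia targets rose in part. Of 18 tested 7 were called higher and 2 lower (median log2 change 0.16), beside 4.96% and 4.38% of all genes. In all 12 fits without 1 library 4 of the 7 were called, as were 418 of all 787 genes called higher. BNIP3 and BNIP3L, which drive the removal of mitochondria, had 0.47 ± 0.08 and 0.42 ± 0.09 (adjusted p = 2.16e-05 and 0.000598), both with no overlap between the times. ANGPTL4, a lipase inhibitor, fell, with 0.701, 1.16 and 2.00 FPKM at 24 h, against 1.81, 2.67 and 4.65 FPKM at 6 h (log2 change -0.98 ± 0.20 (SE), adjusted p = 0.000741). CA9 and VEGFA, the usual readouts of the pathway, were not called, with 0.27 ± 0.18 and -0.21 ± 0.11 (adjusted p = 0.374 and 0.257). CA9 was called GC-corrected (0.47, adjusted p = 0.0367). LDHA and PGK1 were among 3 of 21 glycolysis genes called higher, against 2 lower, and LDHA had 356, 394 and 415 FPKM at 24 h, against 289, 317 and 333 FPKM at 6 h (log2 change 0.30 ± 0.06 (SE), adjusted p = 0.000241).

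Nutrient-sensing and stress lists held calls in both directions, beside 4.96% of all genes called higher and 4.38% lower. Of 20 glucose-sensing and FOXO targets 4 rose and 1 fell, among them KLHL24 (0.51 ± 0.09) and GABARAPL1, an autophagy protein (0.49 ± 0.09). TXNIP, which glucose induces, had 153, 161 and 176 FPKM at 24 h, against 141, 161 and 174 FPKM at 6 h (log2 change 0.04 ± 0.04 (SE), adjusted p = 0.561). Of 24 tested ATF4 targets, the genes of the amino acid response, 1 was called higher (DDIT4) and 3 lower, and ASNS, asparagine synthetase, had -0.04 ± 0.09 (adjusted p = 0.841). Of 18 genes of the unfolded protein response 0 were called higher and 3 lower, and of 13 heat shock genes 0 and 2. The 2 are HSPA1A and HSPA1B, near-identical copies that share reads, with -0.84 ± 0.21 and -0.80 ± 0.19. Mean HSPA1A was 70.5, 81.2, 146 and 84.5 FPKM at 1, 3, 6 and 24 h, and HSPA1B 80.5, 92.9, 163 and 96.3 FPKM. Both were highest at 6 h. GC-corrected, 5 glucose-sensing and FOXO targets were called higher and 0 lower, and 1 and 8 of the ATF4 targets. The unfolded protein response had 1 higher and 6 lower, and heat shock genes 0 and 6. Over all genes that fit called 13.7% higher and 14.2% lower. CDKN1A, the p21 inhibitor of the cell cycle, had 12.9, 26.3 and 27.9 FPKM at 24 h, against 22.4, 35.5 and 43 FPKM at 6 h and was not called as deposited (log2 change -0.53 ± 0.18 (SE), adjusted p = 0.0567), but was GC-corrected (-0.38, adjusted p = 2.31e-10).

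Among clock genes, ARNTL alone kept its call in the deposited values in every fit without 1 library. ARNTL, which encodes BMAL1, had 0.921, 1.35 and 1.4 FPKM at 24 h, against 0.661, 0.743 and 0.911 FPKM at 6 h (log2 change 0.50 ± 0.10 (SE), adjusted p = 0.000521), without overlap. PER2, one of the repressors of BMAL1, had 0, 0.595 and 0.758 FPKM at 24 h, against 0.701, 0.925 and 0.996 FPKM at 6 h (log2 change -0.48 ± 0.14 (SE), adjusted p = 0.0175), but the 0 came from the shallow replicate 2, and without it the value was -0.28 and not called (adjusted p = 0.11). PER2 was called GC-corrected with that library kept (-0.43, adjusted p = 0.004). It was also called in the first library type alone, which lacks that library (-0.29, adjusted p = 0.00627). PER3 did not overlap between the times, at 3.02, 3.27 and 3.33 FPKM at 24 h, against 3.82, 4.00 and 4.28 FPKM at 6 h, yet just missed the threshold (log2 change -0.29 ± 0.10 (SE), adjusted p = 0.0546). In all, 2 of 15 tested clock genes were called higher and 2 lower, beside 4.96% and 4.38% of all genes. GC-corrected, 6 were called higher and 4 lower, beside 13.7% and 14.2% of all genes. NFIL3 (0.31) and CRY1 (-0.32) were among them. CYP1A1, the classic target of the aryl hydrocarbon receptor, fell, with 0, 0.566 and 0.713 FPKM at 24 h, against 0.771, 1.43 and 1.58 FPKM at 6 h (log2 change -0.94 ± 0.17 (SE), adjusted p = 9.76e-05), where the 0 is again the shallow library, in which 3 reads would be 1.8 FPKM.

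Immediate early genes were lower where they were called, and feedback genes of ERK were called in both directions. Over all genes 4.96% were called higher and 4.38% lower. Of 17 tested immediate early and AP-1 genes 4 were called lower and 0 higher. FOSL1, an AP-1 subunit, had 64.6, 102 and 107 FPKM at 24 h, against 106, 147 and 206 FPKM at 6 h (log2 change -0.69 ± 0.17 (SE), adjusted p = 0.00449). EGR1 was lower in all libraries at 24 h, with 0.976, 1.25 and 1.52 FPKM at 24 h, against 1.62, 1.86 and 2.38 FPKM at 6 h, and was not called (log2 change -0.50 ± 0.19 (SE), adjusted p = 0.0841). FOS, at 0.315, 0.441 and 0.638 FPKM at 24 h, against 0.378, 0.587 and 0.627 FPKM at 6 h, and DBP were too low to be tested. Of 21 ERK feedback genes 1 was called higher, SPRY1 at 0.46 ± 0.10, and 2 lower, CCND1 and HBEGF. GC-corrected, 1 of the 17 immediate early genes was called higher and 9 lower, and 3 and 9 of the ERK feedback genes. The shares over all genes in that fit were 13.7% higher and 14.2% lower.

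The same time step was measured a second time in separate libraries, 3 at 24 h and 3 at 6 h, of cells given 100 nM BAY2506856. There 2577 genes (16.2%) were called, 1407 (8.87%) higher and 1170 (7.37%) lower. The genes called higher in both steps numbered 535, which is 68.0% of those of the DMSO step and 38.0% of those of the 100 nM step. Those called lower in both numbered 348, or 50.1% and 29.7%. In the 100 nM step 4 of the 787 DMSO rises were called lower and 6 of the 695 falls were called higher. All 12 of the largest rises and all 12 of the largest falls had the same sign at 100 nM, with 10 and 6 called there. NNMT averaged 30.9 ± 0.841 FPKM at 24 h and 13.8 ± 0.457 at 6 h with 100 nM (SD, n = 3), a log2 change of 1.14 ± 0.10, and INSIG1 averaged 23.9 ± 0.85 and 14 ± 0.487 FPKM, a log2 change of 0.75 ± 0.10.

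Where the steps differ was tested directly, as the DMSO step minus the 100 nM step, and 532 genes (3.35%) passed, 290 (1.83%) with a higher and 242 (1.53%) with a lower value in DMSO. The S phase list held 29 of these, all with the higher value in DMSO, where PCNA fell by 0.38 on the log2 scale, against -1.12 ± 0.08 with 100 nM. Its median log2 change was -0.22 in DMSO and -0.91 with 100 nM. Of the mitosis list 9 passed, KIF20A among them (0.43 ± 0.05 in DMSO and -0.05 ± 0.07 with 100 nM), all with the higher value in DMSO. Of the matrix list 6 and of the ERK feedback list 8 passed, all with the lower value in DMSO. Of the cholesterol list 1 passed and of the interferon-stimulated genes 3. NOX5, an oxidase, showed the largest difference by the naming rule, 0.57 ± 0.09 in DMSO and 2.97 ± 0.12 with 100 nM (difference -2.40 ± 0.15, adjusted p = 2.36e-16). SLC40A1 also rose less in DMSO, by 0.90 ± 0.09 against 1.85 ± 0.13 (adjusted p of the difference = 6.22e-05). With type terms 1721 genes passed, and 2288 GC-corrected, while leaving out 100 nM 24 h replicate 1 or 2 or 100 nM 6 h replicate 2 or 3 gave 311, 341, 328 and 322.

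**Figure D5:**
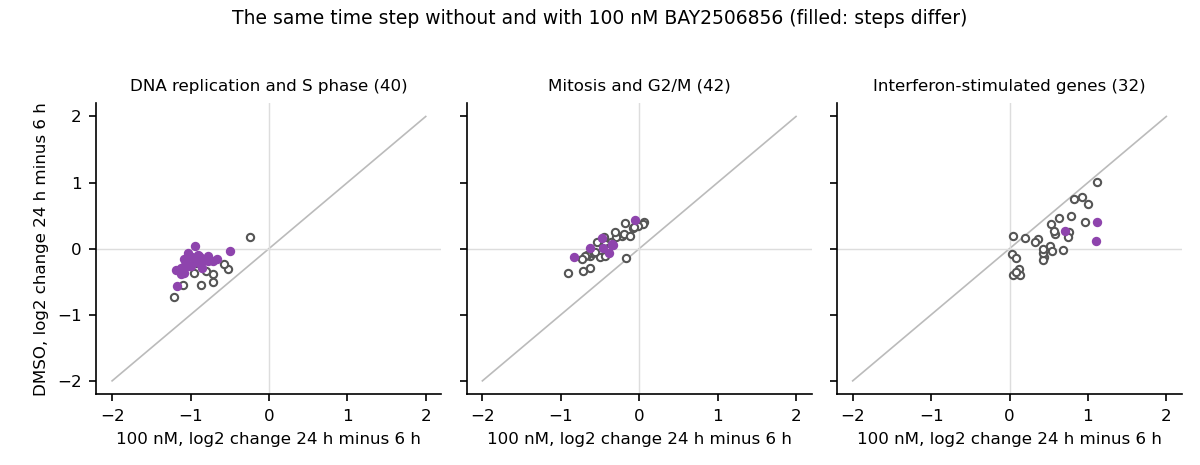
Log2 change, 24 h minus 6 h, in DMSO cells (vertical) and in cells with 100 nM BAY2506856 (horizontal) for the tested members of 3 lists, with filled points where the 2 steps differ and a grey line of equal change. Of the 40 S phase genes 29 are filled, and their values with 100 nM lie left of the line, while 3 of 32 interferon-stimulated genes are filled.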

How the data were processed

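Poly(A) RNA of 60 MDA-MB-231 libraries was made into stranded libraries and sequenced as single reads, per the labels' protocols. Reads were aligned to hg19 with STAR 2.4.2a and counted with featureCounts 1.4.6-p2 of Subread, and DESeq2 was also used, per the submitters' processing notes. Which annotation release was used is not stated in those notes. The authors deposited 1 table of log2(FPKM + 1) values for 38342 gene names, with a column for each of the 60 libraries. All of its sample columns were matched to a sample by name.

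Values were turned back into FPKM and analysed as log2(FPKM + 0.5) with limma 3.58.1 in R 4.3.3 (trended, robust eBayes), in 1 fit over all groups with 44 residual degrees of freedom. A gene was tested where 3 or more libraries reached 1 FPKM. Fold changes on this scale understate the change of low genes. The p-values were adjusted by Benjamini-Hochberg over all 15866 genes, with a threshold of 0.05. The other contrasts were the DMSO step minus the step between 3 h and 1 h, the 24 h minus 6 h step at 100 nM, and the difference of the DMSO and 100 nM steps. FPKM steps gave back whole reads for 100% of the 1304094 values above 0 (within 0.001 read). These reads gave the depths, and a voom fit as an alternative. No 2 replicates of the 30 pairs agreed within sampling noise (lowest chi-square per gene 2.12). Only the main fit of the DMSO step was run on simulated counts, which held no library types and no GC trends. That simulation does not cover the alternative fits. GC content came from GENCODE 29 for 13279 of the 15866 genes (83.7%), and promoter sequences from RefSeq (GRCh38.p14), whose build differs from that of the alignment.

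The gene lists and the members named were chosen with earlier results of these data known. The text names the 12 highest and 12 lowest changes that met the conditions given above, up to 4 called genes per list with the largest change, some always listed (MYC and SCD among them) and from each of the other contrasts the 3 genes at either end. HLA-B, HLA-C, HLA-E, TYMS, MCM7, CCNB1, COL4A1, THBS1, LATS2, AXL and the other markers were named outside this rule, and where not markers they were chosen after their values were seen. Some genes that the rule names are counted but not reported here. Alternatives covered the pseudocount, the filter, the scaling, array weights, the groups fitted, library types, shallow libraries, voom, GC content and each library left out.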

Additional observations from a re-analysis of the deposited data

Results flagged for a closer look

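The groups of 6 of the named genes were searched for single libraries far from the other 5, and 43 of 294 groups held one, where chance gives about 1 in 20. DMSO 24 h replicate 2, the library of 0.475 M reads and of the second library type, stood apart in 26 genes. Its FPKM values were LGALS12 6.37, TRAC 5.45, TFF1 0, TFF2 0, PORCN 4.8, TNFSF9 0, SDCCAG3P1 0, ARNTL 0.921, PER2 0, SPRY1 3.13, FJX1 1.69, IGFBP3 15.8, MMP1 26.2, IDI1 46.6, GABARAPL1 6.57, SLC7A1 17.5, AURKB 22.1, IFIT2 41.4, NFKBIA 20, FTH1 210, CYP1A1 0, ZNRF3 0.593, ANKRD1 156, CDKN1A 12.9, FAM58BP 0 and RRM2P3 16. DMSO 6 h replicate 5, the other library of the second type, stood apart in 12 genes, with FPKM values of IFIT1 16.3, C4A 5.47, ACSL3 17.3, BNIP3 21, SLC1A4 1.53, SLC7A1 21.7, RBL2 4.62, ODC1 57.2, PSAP 281, CYP1A1 0.771, FOS 0.378 and MCTS2P 5.6. DMSO 6 h replicate 1 had SDCCAG3P1 4.96, MSMO1 11.6 and HARS 14.6 FPKM. DMSO 24 h replicate 1 had AKR1C3 15.3 FPKM, and DMSO 24 h replicate 5 had NOX5 1.08 FPKM. The value of IFIT1 in DMSO 6 h replicate 5 lies nearer to those at 24 h than the other 5 do, and the gene was called without it.

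The step between 24 h and 6 h differed from the step between 3 h and 1 h in 607 genes by limma's test of the difference. By the naming rule the largest were LGALS12 at 1.61, TRAC at 1.30 and SLC2A12 at 1.01 on the log2 scale, TFF1 at -2.09, TFF2 at -1.70 and FAM58BP at -1.62 (adjusted p between 1.15e-06 for SLC2A12 and 0.027 for FAM58BP). TFF1, TFF2 and FAM58BP were at 0 in the shallow library at 24 h. The step in DMSO cells differed from that with 100 nM in 532 genes. The largest positive differences were 1.20 for RRM2P3, 1.17 for SFTA1P and 1.07 for MCTS2P, and the largest negative ones -2.40 for NOX5, -1.69 for PI16 and -1.68 for AGR2, a secreted disulfide isomerase (adjusted p between 2.36e-16 for NOX5 and 0.0319 for MCTS2P). RRM2P3 and MCTS2P carry pseudogene names, and reads may be shared with their parent genes. Their values in 1 DMSO library also stood apart.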

How the results depend on the processing

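The count of 1482 genes changed between 24 h and 6 h in DMSO cells stayed within 1.5 times with a pseudocount of 0.1 FPKM (1424), no filter (1133), median-of-ratios scaling (1478), voom on recovered reads (1407) and libraries under 2 M reads removed (1216). It was 3497 with array weights, 370 with only the groups compared, 4162 with library type terms, 4258 in the first library type, 3846 with voom and type terms, 2471 with the GC trend taken out, 3695 with type terms added to that, and 4113 with the GC trend taken out in the first type. In the same order the 607 genes whose late and early steps differed became 2245, 221, 2094, 1271, 2254, 1473, 2497 and 2152, and 958 with voom alone. The 2577 genes of the 100 nM step became 7587, 6195, 4462, 5849, 6133, 4008, 5095 and 6475. The 532 genes whose DMSO and 100 nM steps differed became 3323, 344, 1721, 2434, 2287, 1424, 2288 and 3215. Settings with library types or GC content were in part chosen after seeing the data, and the cause of these shifts was not tested.

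Leaving out 1 library gave 980 (without DMSO 6 h replicate 1) to 1952 genes for the DMSO step, 483 to 709 for the late against the early step, 1872 to 2029 for the 100 nM step and 311 (without 100 nM 24 h replicate 1) to 602 for the difference of the steps. Of 130 named and called genes none changed sign; 1677 of 1816 values in other settings and 1397 of 1560 with a library left out stayed past the threshold. The signs that turned belonged to genes that were not called: MKI67 (0.002 with voom and type terms, and -0.084 to 0.037 with a library left out, above 0 without DMSO 24 h replicate 1 or, at 0.035, DMSO 6 h replicate 5), TXNIP (-0.007 with array weights, -0.006, -0.006 and -0.020 in the GC settings), PER1 (0.052, 0.052 and 0.103 in the GC settings), ASNS (0.015 with voom and type terms), MIR4263 (-0.262 with array weights) and PI16 (-0.034 to 0.191 with a library left out, below 0 without DMSO 6 h replicate 5 or, at -0.003, DMSO 24 h replicate 5). No paired analysis was possible because the replicate numbers follow accession order only. Depth limits low genes in DMSO 24 h replicate 2, which has 0.475 M reads.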

Other observations

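Genes outside the lists, chosen after their values were seen, showed more of both directions. BTN3A1, a butyrophilin read by gamma delta T cells, averaged 9.04 FPKM at 24 h and 5.63 FPKM at 6 h (log2 change 0.64 ± 0.07 SE, limma adjusted p = 1.37e-09). Interferon-linked genes that also rose were AIM2, a DNA sensor (0.71 ± 0.17), DDX60 (0.60 ± 0.11), PARP9 (0.57 ± 0.09), GBP4 (0.56 ± 0.10), SAMD9L (0.54 ± 0.13) and the death ligand TNFSF10 (0.54 ± 0.12), with adjusted p between 1.37e-05 for PARP9 and 0.00382 for AIM2. RARRES3, a phospholipase that retinoids induce, averaged 85.2 FPKM at 24 h and 51.96 FPKM at 6 h (0.71 ± 0.09, adjusted p = 2.38e-07). IDH1, which makes NADPH in the cytosol, averaged 18.2 FPKM at 24 h and 11.1 FPKM at 6 h (0.69 ± 0.07, adjusted p = 3.07e-09).

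Among further genes that fell, SERPINA3, an acute phase protease inhibitor, averaged 2.21 FPKM at 24 h and 4.23 FPKM at 6 h (log2 change -0.80 ± 0.08 SE, adjusted p = 7.57e-10). PLAUR, the receptor of urokinase, averaged 12.9 FPKM at 24 h and 19.9 FPKM at 6 h (-0.64 ± 0.13, adjusted p = 0.000589). WNT5B, a WNT ligand, averaged 4.26 FPKM at 24 h and 7.13 FPKM at 6 h (-0.67 ± 0.12, adjusted p = 6.81e-05). SEMA7A, a membrane-bound semaphorin, averaged 9.71 FPKM at 24 h and 15.7 FPKM at 6 h (-0.68 ± 0.16, adjusted p = 0.004). GC-corrected, SERPINA3 was at -0.73, PLAUR at -0.54, WNT5B at -0.51 and SEMA7A at -0.46.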
